A study of Caenorhabditis elegans with 6 samples.

Results

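The large piRNA cluster on the right arm of Caenorhabditis elegans chromosome IV was examined for its contact with EMR-1, the worm emerin, in embryos. The cluster was defined by position, as chrIV:13500001-17200000 of the ce11 build, a stretch of 3.7 Mb that ends 294 kb before the right end of the chromosome. It holds 11388 of the 15363 piRNA genes annotated on the nuclear chromosomes, together with 458 protein-coding genes, 121 pseudogenes and 32 tRNA genes that lie wholly inside it. Of the 370 possible bins of 10 kb, 368 were listed and 364 passed a minimum of 60 reads over all libraries, out of 9914 such bins in the genome. Membership was set by coordinates and used no ratio, although the interval was taken up with earlier results of these data known.

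piRNAs of this worm, also called 21U RNAs, are short RNAs that guide the Piwi protein PRG-1 to foreign and transposon transcripts in the germline. Most are transcribed from tiny separate genes, each with its own promoter, that lie between and within ordinary genes of chromosome IV. Emerin is a protein of the inner nuclear membrane that binds the lamina, and chromatin near it is counted as lying at the nuclear periphery.

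The assay was DamID (DNA adenine methyltransferase identification): a fusion of the Escherichia coli enzyme Dam to a protein methylates GATC sites in nearby DNA, and methylated fragments are amplified for sequencing. The 3 libraries of strain BN1470 carried Dam::EMR-1, and the 3 libraries of strain BN1465 carried GFP::Dam, which is not tied to the membrane. All 6 libraries are labelled WT in genotype and EMS in cell type, EMS being the embryonic founder cell of intestine, pharynx and muscle lineages. The worms were kept at 20 °C and fed dam(-) E. coli, embryos were taken from 4000 adults per strain after 72 h of growth, and the assay used 200 ng of genomic DNA from embryos and 24 PCR cycles. Strain and construct cannot be told apart, the labels do not state which promoter drove the constructs, and DamID does not measure the marker expression by which the labelled cell type could be checked. In DNA from many embryos, contact in more cells and more contact per cell cannot be told apart. No label ties the replicates to separate cultures, and their spread, which is all the p-values measure, may be technical.

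Each value is a log2 ratio of Dam::EMR-1 over GFP::Dam in a pair of equally numbered libraries. The headers leave the numerator unnamed. It was assumed to be Dam::EMR-1, from the tables' naming and the usual form of such a ratio, and every direction and group assignment below rests on this. A bin or gene is called enriched when its ratio was above 0, and depleted when it was below 0, with a Benjamini-Hochberg adjusted p under 0.05 by limma on the 3 ratios over the whole table. Libraries held 15719682 to 22407988 reads in Dam::EMR-1 and 16278015 to 17535839 in GFP::Dam. The ratios are centred on the genome, and scaling by total reads instead would raise every 10-kb ratio by a mean of 0.60 and would make 34.6% of all 10-kb bins enriched and 20.3% depleted.

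Most of the cluster lay on the Dam::EMR-1 side of the ratio. Of its 364 bins of 10 kb, 214 (58.8%) were enriched, where 28.4% of all bins tested were, and 31 (8.52%) were depleted, where 25.2% of all bins tested were. The remaining 119 bins were not called. The median ratio of the cluster's bins was 3.07, against 0.20 over all bins, and the cluster's quartiles were 0.73 and 4.96. The mean ratio was 2.72, 2.59 and 2.18 in replicates 1 to 3, or 2.50 ± 0.28 (SD, n = 3). Single bins reached from -9.65 to 9.39. Across the 364 bins, ratios of different replicates correlated at Pearson's r of 0.769 to 0.790, a description over bins that share libraries.

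**Figure D1:**
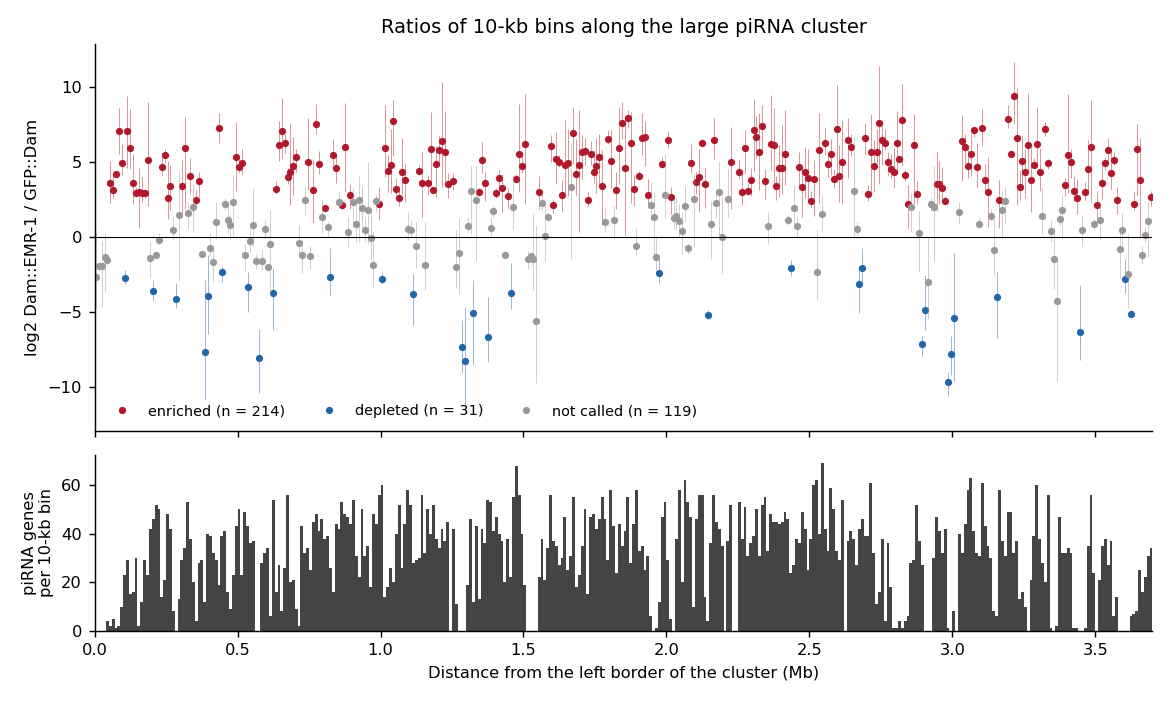
The upper panel plots the log2 ratio of Dam::EMR-1 over GFP::Dam for each of the 364 bins of 10 kb by its distance from the cluster's left border in Mb; points are means of 3 replicates, vertical lines run from the lowest to the highest replicate, and colours give the call. The lower panel gives the piRNA genes per bin. The 214 enriched bins spread over the whole length, and the 31 depleted bins stand singly or in short runs among them.

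The same picture held at other scales. Of 1850 possible bins of 2 kb, 1586 were listed and 1290 passed the read minimum. Among these, 560 (43.4%) were enriched, against 19.2% of all 2-kb bins, and 88 (6.82%) were depleted, against 17.2% of all. Calls at 2 kb depended on having all 3 ratios. In fits with 1 replicate left out, 137 to 172 bins (10.6% to 13.3%) were enriched and 29 to 46 (2.25% to 3.57%) depleted. Of all 2-kb bins in those fits, 5.29% to 6.75% were enriched and 7.69% to 8.92% depleted. With edgeR on recovered reads and the replicate number as a block, 154 (12.8%) were enriched and 43 (3.57%) depleted, against 6.35% and 10.8% of all 2-kb bins in that fit. All 37 bins of 100 kb were tested, and 26 (70.3%) were enriched and 4 (10.8%) depleted, where 36.9% and 38.0% of all 100-kb bins were. The count of depleted 100-kb bins was 2 without replicate 1.

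Reads per library, recovered from the ratios and read sums, were used to see in which group the cluster differed. The cluster makes up 3.69% of the genome's length. It holds a smaller share of the listed GATC sites, 4900 of 173752, or 13.2 per 10 kb against 17.3 over the genome. It took 3.57%, 3.56% and 3.38% of the reads of the Dam::EMR-1 libraries, against 2.24%, 2.01% and 2.14% of those of the GFP::Dam libraries. The Dam::EMR-1 libraries were all higher, close to the cluster's share of length, and the GFP::Dam libraries all lay below it. These read shares were not scaled by the number of sites, from which the reads come. Set against length alone, they do not settle in which group the cluster differed. The means were 3.50% ± 0.11 and 2.13% ± 0.12 (SD, n = 3 each), with p = 0.1 by an exact two-sided permutation test, the smallest value 3 against 3 libraries can give. None of the exact tests below could go lower.

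The 10-kb bins of the cluster were at a like level to other bins in Dam::EMR-1 and at a low level in GFP::Dam. The mean log2(CPM + 1) per bin, CPM being reads scaled to a common library total, was 5.50, 5.47 and 5.37 in the Dam::EMR-1 libraries and 2.91, 2.73 and 3.24 in the GFP::Dam libraries. In the rest of the genome, these levels were 5.20, 5.41 and 5.39 in Dam::EMR-1 and 4.81, 4.75 and 5.08 in GFP::Dam. The cluster differed from the rest by 0.11 ± 0.16 in Dam::EMR-1 and by -1.92 ± 0.09 in GFP::Dam (SD, n = 3 each; exact permutation p = 0.1 between the groups' differences, also after adjustment over 4 comparisons). The Dam::EMR-1 difference was smaller than its spread, while the GFP::Dam difference was below 0 in 3 of 3 libraries. Levels were not scaled by listed GATC sites, which averaged 13.45 per bin in the cluster and 17.68 in the rest of the genome.

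On ratios, the cluster was higher than the rest of the genome by 2.82, 2.68 and 2.26 in the 3 replicates, or 2.59 ± 0.29. The rest of the genome had 27.2% of its 9550 bins enriched and 25.9% depleted. The other known piRNA-rich interval, the small cluster of chromosome IV at 4.5 to 7 Mb with 2816 piRNA genes, had a mean ratio of 0.58 ± 0.14, with 89 of 247 bins enriched and 51 depleted. The large cluster was higher by 2.04, 1.95 and 1.75, or 1.91 ± 0.15 (SD, n = 3; exact permutation p = 0.1 on the level differences, 0.1 after adjustment). On reads summed over each region, these differences were smaller, at 0.72 against the rest and 0.66 against the small cluster.

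Autosome arms are known for contact with the nuclear envelope, so the cluster was also set against windows at the same distance from other ends. Against the right-end windows of chromosomes I, II, III and V, the mean ratio of the cluster's 10-kb bins was higher by 1.96, 1.48 and 1.52, or 1.65 ± 0.27. Against the mirrored window at the left end of chromosome IV (chrIV:290001-4000000) it was higher by 1.88, 1.27 and 1.52, or 1.56 ± 0.31 (SD, n = 3; exact permutation p = 0.1 for each on level differences, 0.1 after adjustment). Both directions turned on summed reads, where the log2 difference of Dam::EMR-1 and GFP::Dam was -0.22 against the right-end windows and -0.67 against the mirrored window. A pair of 100-kb bins described below held 46.6% of the cluster's GFP::Dam reads, and without them the summed values were 0.66 and 0.21. On 100-kb bins the differences were 0.65 and 0.52. The mirrored comparison was 0.99 among bins with 13 to 22 listed GATC sites. Listed sites averaged 13.45 per 10-kb bin in the cluster, against 14.37 in the mirrored window and 15.71 in the right-end windows.

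The 4 right-end windows differed among themselves. Their mean ratios were 0.86 ± 0.19 on I, 0.10 ± 0.22 on II, 0.09 ± 0.35 on III and 2.36 ± 0.29 on V (SD, n = 3). The cluster was not separated from the window on V (chrV:16930001-20640000), which holds 6 piRNA genes and had 197 of 363 bins enriched and 22 depleted. The ratio of the cluster was higher than that of the V window by 0.30, -0.02 and 0.13 in the 3 replicates, or 0.14 ± 0.16. On log2(CPM + 1) levels the cluster lay below the V window, by -0.29 ± 0.17 in Dam::EMR-1 and by -0.10 ± 0.02 in GFP::Dam.

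**Figure D2:**
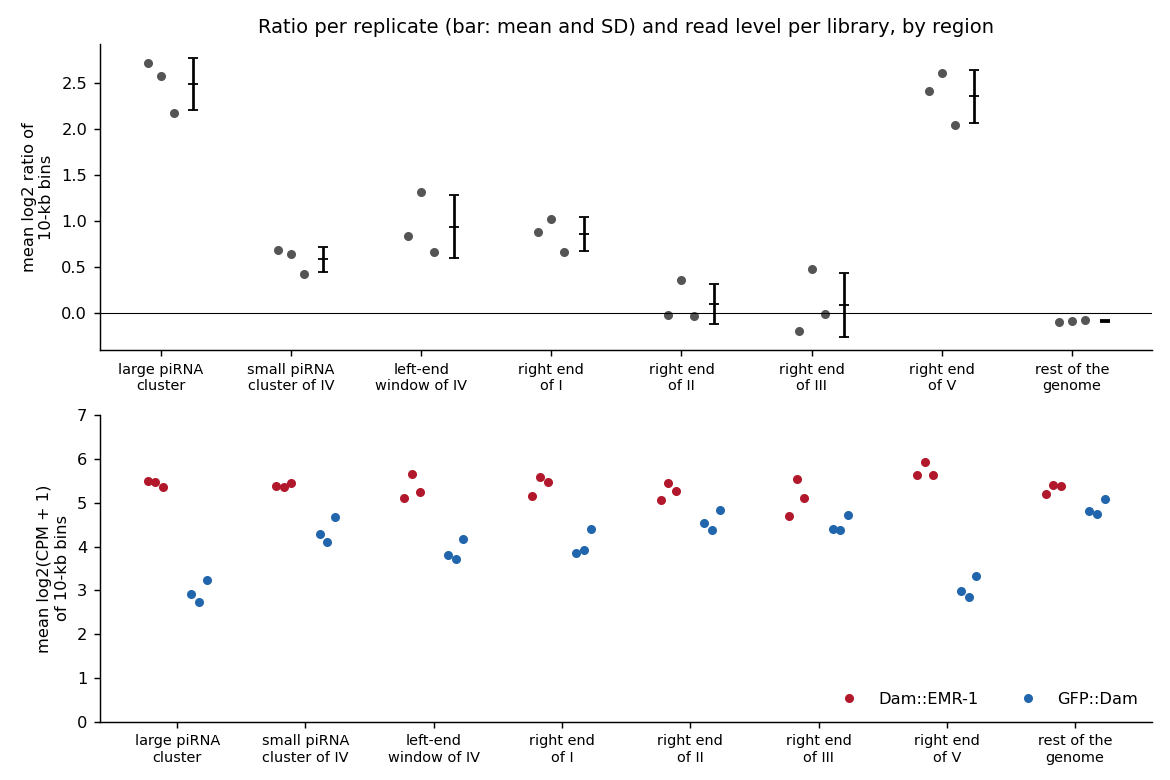
The upper panel plots the mean log2 ratio of the 10-kb bins of each region in each of 3 replicates, with the mean and SD as a bar; the lower panel plots the mean log2(CPM + 1) of the same bins in each Dam::EMR-1 and GFP::Dam library. The large cluster and the right end of V have the highest ratios and the lowest GFP::Dam levels, while Dam::EMR-1 levels lie between 4.69 and 5.93 in all regions plotted.

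Along the cluster, the highest 100-kb bins were the ones starting at 16700001, 16200001 and 15200001. The first held 1640, 1470 and 1400 CPM in the Dam::EMR-1 libraries, against 24.6, 73.2 and 46.4 CPM in the GFP::Dam libraries, for a log2 ratio of 4.89 ± 0.91. The second held 2150, 2370 and 2150 CPM in Dam::EMR-1, against 88.4, 39.9 and 87.4 CPM in GFP::Dam, for a ratio of 4.82 ± 0.68. The third had a ratio of 4.64 ± 0.11, with 1690, 1810 and 1210 CPM in Dam::EMR-1 and 55.7, 64.9 and 42.1 CPM in GFP::Dam. In each of these bins every Dam::EMR-1 library lay above every GFP::Dam library. The bins were chosen by the ratio of these libraries, so this gap is no separate support.

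The lowest bins went the other way and carried much of the cluster's GFP::Dam signal. The bin starting at 16400001 held 239, 282 and 264 CPM in the Dam::EMR-1 libraries, against 4230, 3530 and 3270 CPM in the GFP::Dam libraries, for a ratio of -4.02 ± 0.28. The bin starting at 15600001 held 543, 622 and 608 CPM in Dam::EMR-1, against 6420, 6170 and 6160 CPM in GFP::Dam, for a ratio of -3.62 ± 0.12. These bins held 2.19%, 2.54% and 2.59% of the cluster's reads in the Dam::EMR-1 libraries, against 47.5%, 48.2% and 44.2% in the GFP::Dam libraries. The third lowest, starting at 14000001, had -0.88 ± 0.66 (SD, n = 3). Without the 2 lowest bins, which were chosen after their values were seen, the cluster held 3.50%, 3.47% and 3.29% of the Dam::EMR-1 reads and 1.19%, 1.05% and 1.20% of the GFP::Dam reads.

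**Figure D3:**
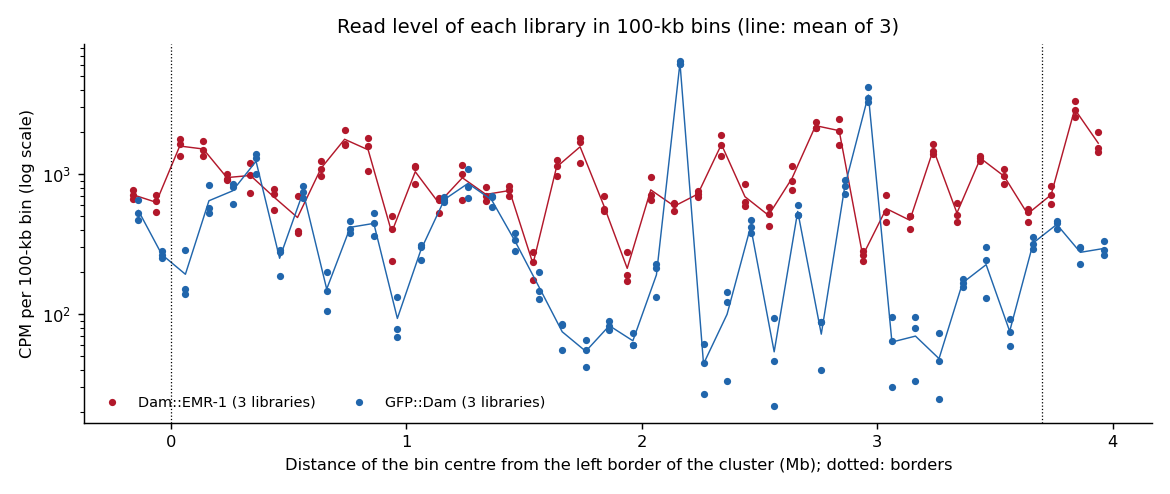
CPM per 100-kb bin on a log scale in each of the 3 Dam::EMR-1 and 3 GFP::Dam libraries, by distance of the bin centre from the cluster's left border in Mb, with lines through the means and dotted lines at the borders. GFP::Dam falls below 100 CPM over much of the right part and has 2 peaks at 3270 CPM or more, while Dam::EMR-1 stays between 172 and 2460 CPM inside the borders.

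In the bin at 15600001 the GFP::Dam reads came from few GATC sites. There, 4 sites within 1964 bp (first at 15646452, last at 15648416), in and beside a pair of uncharacterised genes, took 0.29%, 0.42% and 0.30% of the cluster's reads in the Dam::EMR-1 libraries, against 27.7%, 30.0% and 28.2% in the GFP::Dam libraries.

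Over the whole cluster, too, GFP::Dam reads were concentrated on fewer sites. Of 4507 sites with recovered reads, the 45 with the most reads in a library held 15.9%, 16.8% and 19.0% of its reads in Dam::EMR-1, against 68.5%, 67.0% and 64.2% in GFP::Dam. The number of sites at 0 reads, of the 4507, was 768, 1149 and 790 in the Dam::EMR-1 libraries, against 2512, 2663 and 2091 in the GFP::Dam libraries. The site with the most Dam::EMR-1 reads lay in ilcr-1, an interleukin-receptor-like gene. This site, at 14281266, had 5007, 2071 and 3932 reads, against 193, 0 and 158 in GFP::Dam. The next lay in pkd-2, the polycystin channel of male sensory neurons. It was at 15232613 and had 3650, 4370 and 2169 reads, against 50, 13 and 41 in GFP::Dam. The third, at 14315103 in Y64G10A.7, had 2095, 3276 and 4228 reads, against 1294, 861 and 963 in GFP::Dam. Its ratios were only 0.104, 1.591 and 1.971.

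The borders of the interval did not coincide with one step in the ratio. Just inside the left border, the 3 bins of 10 kb had ratios of -2.70, -1.91 and -1.92 and no piRNA gene. The 3 bins just outside had 4.41, -0.71 and 0.49. At the right border the 3 bins inside had 0.13, 1.07 and 2.63 with 22, 31 and 34 piRNA genes, and the 3 outside had 1.53, -0.94 and 2.80 with 43, 26 and 30 piRNA genes. At 100 kb, the first and last bins inside had 2.90 ± 0.75 and 0.48 ± 0.26, against 1.02 ± 0.10 and 0.48 ± 0.23 in their outer neighbours (SD, n = 3). Of the 4 listed 10-kb bins under the read minimum, with 18 to 57 reads, the ratios were 1.02 to 2.60, and the 3 members with the fewest reads, 81 to 118, had 1.08, -1.34 and 3.32.

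Neighbouring 10-kb bins with the same call were joined into domains of at least 2 bins. There were 39 enriched domains with a median of 40 kb, which covered 1970 kb or 53.2% of the cluster, and 5 depleted ones of 20 to 30 kb, which covered 110 kb or 2.97%. The longest enriched domain, chrIV:16190001-16350000, held 27 protein-coding genes, 10 of them chemoreceptor genes, and 311 piRNA genes. Its ratio was 5.31, 6.20 and 4.49 in the 3 replicates, or 5.33 ± 0.86. The next were chrIV:16690001-16810000, with 364 piRNA genes and a ratio of 5.61 ± 0.46, chrIV:15170001-15280000, with pkd-2, the ion channel gene lgc-52 and 434 piRNA genes and a ratio of 4.82 ± 0.56, and chrIV:15750001-15850000, with the pheromone-receptor gene daf-38 and 436 piRNA genes and a ratio of 5.06 ± 0.03. The 4 domains of 80 kb that followed, from 13610001, 14130001, 14510001 and 14660001, had 4.18 ± 1.18, 5.14 ± 0.75, 4.60 ± 0.93 and 4.85 ± 0.21 (SD, n = 3).

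All 5 depleted domains were below 0 in 3 of 3 replicates, which their definition by calls on the same 3 ratios makes likely. The domain chrIV:13880001-13900000 held 52 piRNA genes with lin-66, a heterochronic gene, rpl-29, a ribosomal protein gene, and thoc-7, of the THO complex in mRNA export, and had -4.66, -7.50 and -5.26. The domain chrIV:14780001-14800000 held coq-3, gdi-1, nuo-3 and arl-8 and 0 piRNA genes, and had -6.91, -8.65 and -7.79. The domains from 16170001 and 16390001 had means of -2.63 ± 1.24 and -6.02 ± 1.28 (SD, n = 3) and held 88 and 27 piRNA genes, so depleted domains were not all free of piRNA genes.

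Within the cluster, bins with piRNA genes and bins without them differed. Of the 2-kb bins tested, 1019 held at least 1 piRNA gene, and of these 486 (47.7%) were enriched and 29 (2.85%) depleted. The 271 bins without one had 74 (27.3%) enriched and 59 (21.8%) depleted. Over all 2-kb bins tested 19.2% were enriched and 17.2% depleted, so the bins without a piRNA gene were above both shares. The mean ratio was 3.41, 3.09 and 3.00 in bins with a piRNA gene, against 0.40, -0.05 and 0.28 in bins without. The difference was 3.00, 3.14 and 2.72, or 2.95 ± 0.22 (SD, n = 3; exact permutation p = 0.1 on level differences, 0.17 after adjustment over 5 comparisons). Bins with a piRNA gene also had fewer reads, with a median of 635 against 1088. They had fewer listed GATC sites, 3.37 per bin against 4.14. Relative to bins without a piRNA gene, log2(CPM + 1) was higher by 0.50 ± 0.17 in Dam::EMR-1 and lower in GFP::Dam, at -1.10 ± 0.11, each in 3 of 3 libraries. On this scale the same difference was 1.59.

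Among bins with piRNA genes, the ratio varied little with their number. Mean ratios were 2.80 ± 0.39 in bins with 1 or 2 piRNA genes, 3.22 ± 0.14 with 3 to 5, 3.21 ± 0.19 with 6 to 10 and 3.26 ± 0.34 with over 10 (SD, n = 3). Bins with over 10 were higher than those with 1 or 2 by 0.57, -0.04 and 0.82, with an exact permutation p of 0.5 on the level differences. Across the 37 bins of 100 kb, the ratio and the number of piRNA genes had Pearson's r of 0.101 and Spearman's rho of 0.118, and across the 364 bins of 10 kb 0.314 and 0.253, both as descriptions over bins that share libraries. Bins with over 10 had lower levels than bins with 1 or 2 in both groups, with a mean log2(CPM + 1) of 3.01 against 3.67 in Dam::EMR-1 and of 0.88 against 1.45 in GFP::Dam. These dense bins also had fewer listed GATC sites, 2.90 per bin against 3.89.

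**Figure D4:**
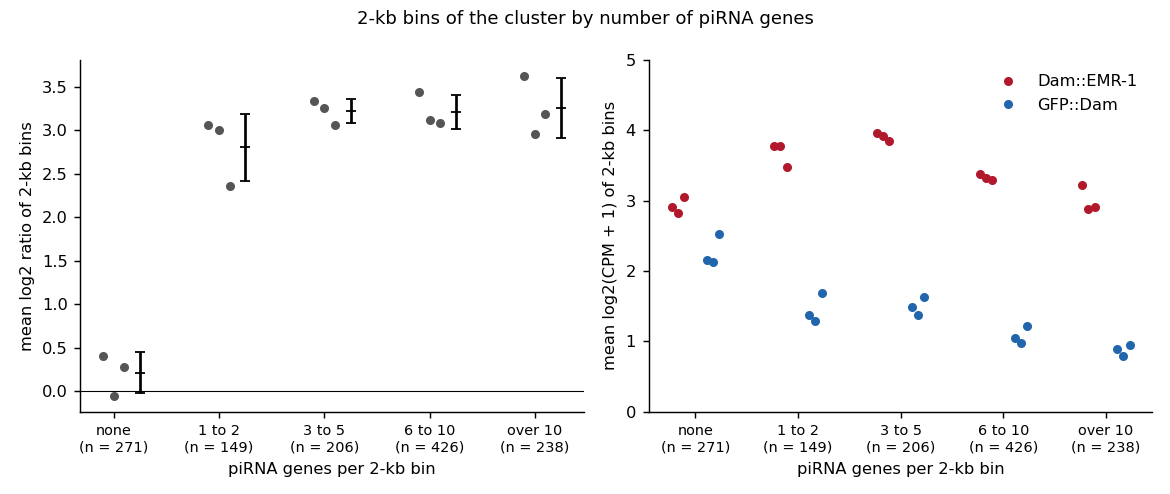
Mean log2 ratio in each of 3 replicates, with mean and SD as a bar (left), and mean log2(CPM + 1) in each Dam::EMR-1 and GFP::Dam library (right), for 2-kb bins of the cluster grouped by their number of piRNA genes. The ratio is 0.21 in bins with none and between 2.80 and 3.26 in the 4 classes with piRNA genes.

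The difference was larger where a protein-coding gene overlapped the bin. Among such bins, the 626 with a piRNA gene had a mean ratio of 3.34 ± 0.22, with 312 enriched and 14 depleted, and the 211 without had -0.23 ± 0.24, with 52 enriched and 48 depleted. The difference was 3.49, 3.81 and 3.42 in the 3 replicates, or 3.58 ± 0.21. Among bins that no protein-coding gene overlapped, the 393 with a piRNA gene had 2.88 ± 0.31 and the 60 without had 1.77 ± 0.60. The difference there was 1.53, 1.38 and 0.42, or 1.11 ± 0.60 (SD, n = 3; exact permutation p = 0.3, 0.38 after adjustment), and the log2(CPM + 1) level was lower with a piRNA gene in both groups, by -0.60 ± 0.31 in Dam::EMR-1 and -0.91 ± 0.11 in GFP::Dam. The same comparison in the small cluster of chromosome IV gave 2.985, 2.197 and 2.435, or 2.54 ± 0.40, from 1.58 ± 0.33 in 620 bins with a piRNA gene and -0.96 ± 0.14 in 434 without.

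Only part of the piRNA genes could be placed in a tested bin. Of the 11388, 7506 (65.9%) lay in 2-kb bins that were tested, 2198 (19.3%) in listed bins under the read minimum and 1684 (14.8%) in bins that were not listed. Enriched bins held 3584 (31.5%) of all 11388 piRNA genes, depleted bins 167 (1.47%) and tested bins not called 3755 (33.0%). These shares count the piRNA genes outside tested bins in the total. Of all 2-kb bins tested, 19.2% were enriched and 17.2% depleted, which are shares of bins and not of piRNA genes. The bin with the highest ratio among called bins with a piRNA gene, chrIV:16710001-16712000, had 3601, 5761 and 4341 reads in Dam::EMR-1, against 3, 0 and 4 in GFP::Dam, and holds 9 piRNA genes, among them 21ur-10135, 21ur-1630 and 21ur-5512. The lowest, chrIV:13890001-13892000 inside lin-66, had 28, 1 and 2 reads in Dam::EMR-1, against 2268, 1789 and 1911 in GFP::Dam, and holds 21ur-15565 and 21ur-5378. Of the 5 bins with the most piRNA genes, 20 to 22 each, 3 were enriched, with ratios of 3.47, 6.28 and 4.20, while 1 had an adjusted p of 0.089 by limma and 1 had only 10 reads.

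Stretches of at least 30 kb without a piRNA gene were rare and had low ratios. There were 5, and all 5 had a mean below 0. The lowest, chrIV:14770001-14800000, had -4.85, -7.03 and -4.78 in the 3 replicates. Of its 12 protein-coding genes 8 were depleted and 0 enriched, where 27.2% and 30.3% of all genes were. It holds coq-3 (a methyltransferase of ubiquinone synthesis), gdi-1 (a Rab GTPase inhibitor), arl-8 (a GTPase of lysosome transport, not tested with 16 reads) and nuo-3 (a subunit of respiratory complex I). A depleted gene that overlaps nuo-3 has the same values as nuo-3, so the 8 are not all separate measurements. The stretch chrIV:15010001-15050000 had -1.29, -2.92 and -3.17, and of its 5 genes 2 were depleted, Y41E3.8 and hrpu-1, an RNA-binding protein gene. The stretch chrIV:17080001-17120000 had 5 of its 10 genes depleted, where 27.2% of all genes were. Among them were snr-1 (-2.84 ± 1.22), a core protein gene of spliceosomal snRNPs, and uaf-2 (-3.28 ± 0.11), the small subunit of the U2AF splicing factor (SD, n = 3). The other 3 were Y116A8C.43, which has the same values as snr-1, and Y116A8C.27 and Y116A8C.29, which have the same values as each other. The ratio of the stretch was -1.69, 0.18 and -2.74, not below 0 in every replicate. The other 2 stretches, from 13500001 and 16400001, had -1.97 ± 0.43 and -1.89 ± 1.64 (SD, n = 3).

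In 10-kb bins the split between bins with and without a piRNA gene was wider. Split at their median number of piRNA genes, 10-kb bins differed by less than 2-kb bins with and without one. Of 335 tested bins with at least 1 piRNA gene 212 (63.3%) were enriched and 23 (6.87%) depleted, and of 29 without one 2 (6.9%) were enriched and 8 (27.6%) depleted. Their mean ratios were 2.90 ± 0.31 and -2.204 ± 0.285 (SD, n = 3). Over all 10-kb bins tested 28.4% were enriched and 25.2% depleted. The 29 include the bins of the stretches above, so the 2 results overlap. Other non-coding genes of the cluster were not all alike in the ratio of the 2-kb bins that hold them. Bins with pseudogenes had a mean ratio of 3.57 ± 0.28, with 50 of 98 enriched and 3 depleted. Bins with tRNA genes had -0.05 ± 0.41, with 3 of 22 enriched and 5 depleted. Bins with snoRNA genes, whose products guide the modification of other RNAs, had -2.22 ± 0.90, with 1 of 6 enriched and 3 depleted (SD, n = 3). Of these, 64, 17 and 4 bins also held a piRNA gene. Bins with miRNA genes had 2.63 ± 0.96, with 2 of 4 enriched, 0 depleted and 0 holding a piRNA gene. Bins with snRNA genes had 0.73 ± 0.74, with 2 of 5 enriched and 1 depleted. Bins of the ncRNA class had -0.19 ± 0.15, with 11 of 53 enriched and 14 depleted (SD, n = 3). Of the snRNA and ncRNA bins 4 and 41 held a piRNA gene. Over all 2-kb bins 19.2% were enriched and 17.2% depleted, and the tRNA, snoRNA, miRNA and snRNA bins are few.

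Protein-coding genes were measured over the GATC sites in the gene and 500 bp on each side, the ratio being the mean of the sites' ratios, so it need not follow the reads summed over the sites. Of the cluster's 458, 442 had a listed site and 428 passed the read minimum. Among these, 262 (61.2%) were enriched, against 30.3% of all 18651 genes tested, and 57 (13.3%) were depleted, against 27.2% of all. The median ratio was 2.71 in the cluster and 0.31 over all genes. With edgeR on recovered reads, which called fewer genes in the whole genome as well, 174 were enriched and 33 depleted without the replicate block and 122 and 27 with it. With the block 28.8% of the cluster's genes were enriched and 6.37% depleted, against 11.3% and 14.3% of all genes.

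Calls differed between genes with and without piRNA genes in or near them. Of 319 tested genes with at least 1 piRNA gene in the body or within 500 bp, 233 (73.0%) were enriched and 15 (4.7%) depleted. Of the 109 without, 29 (26.6%) were enriched and 42 (38.5%) depleted. Mean ratios were 3.12, 2.79 and 2.65 with a piRNA gene, against -0.48, -0.67 and -1.07 without. The difference was 3.59 ± 0.14 (SD, n = 3; exact permutation p = 0.1), and the values of the 3 replicates did not overlap. It was 5.28 with a pseudocount of 0.1 read and 2.45 with one of 5. Genes with a piRNA gene were also longer, with a median of 2211 bp against 1482 bp, and had more reads, 2052 against 1084; the part of length and depth in the difference was not tested.

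Genes were named among those with more than 2039 reads, the median gene, and the same sign in 3 replicates. Of these, the enriched genes with the highest ratios had few GFP::Dam reads. Y73F8A.10 (chrIV:15294340-15295391) had 1900, 1181 and 536 recovered reads in Dam::EMR-1, against 9, 1 and 1 in GFP::Dam, and a ratio of 7.54 ± 0.77 (limma adjusted p = 3.6e-05). The C-type lectin gene clec-190 (chrIV:15124931-15126121) had 2148, 1914 and 1484 reads in Dam::EMR-1, against 7, 6 and 6 in GFP::Dam, and a ratio of 7.01 ± 0.35 (adjusted p = 3e-05). The others among the 10 highest were Y105C5B.18, C47A4.3, F38C2.1, the chemoreceptor genes srw-61 and srz-105, the Rac GTPase gene rac-2, Y45F10B.12 and hpa-1, with ratios of 5.90 to 6.41. Of these genes 5 (hpa-1, srw-61, F38C2.1, rac-2 and srz-105) lie in the longest enriched domain.

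By the same limits, the genes with the lowest ratios had few Dam::EMR-1 reads beside their GFP::Dam reads; without the limits on reads the lowest ratio of a cluster gene was -6.80. Y65A5A.1 (chrIV:16398839-16399826) had 187, 72 and 97 recovered reads in Dam::EMR-1, against 9805, 8685 and 7633 in GFP::Dam, and a ratio of -6.75 ± 0.20 (limma adjusted p = 1.2e-05). The ubiquinone gene coq-3 (chrIV:14793104-14796324) had 490, 3 and 40 reads in Dam::EMR-1, against 7949, 7570 and 11132 in GFP::Dam, and a ratio of -6.39 ± 0.67 (adjusted p = 1.5e-05). The iron-sulfur scaffold gene iscu-1 had -5.77 ± 0.72 and lin-66 -5.76 ± 1.31. An uncharacterised gene at chrIV:15646031-15646468 had -5.71 ± 1.01. The first of the 4 sites above lies inside it, so the 2 results overlap. The gene ccar-1, related to a cell cycle and apoptosis regulator, had -5.11 ± 0.74 (SD, n = 3 for each). Of the other 4, sec-61.A, the channel subunit for protein import into the endoplasmic reticulum, had -4.59, Y57G11C.3 had -4.58 and Y45F10B.59 had -4.34. Y57G11C.43 had -0.257, -5.997 and -8.194 in the 3 replicates, and its call was lost without replicate 2 (adjusted p = 0.054) or replicate 3 (adjusted p = 0.079). The call of sec-61.A was lost with edgeR (adjusted p = 0.073). Of the 10, 7 have no piRNA gene within 500 bp, and lin-66 has 18.

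**Figure D5:**
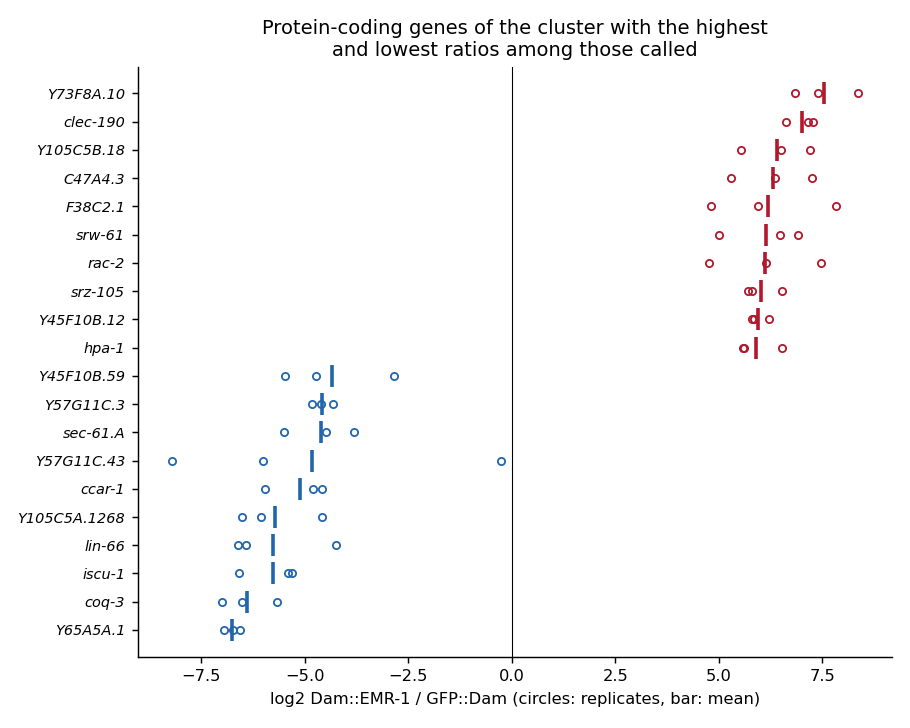
Log2 ratio of Dam::EMR-1 over GFP::Dam in each of 3 replicates (circles) and their mean (bar) for the 10 protein-coding genes with the highest and the 10 with the lowest mean ratio among called genes of the cluster with more than 2039 reads and the same sign in every replicate. The enriched genes have means of 5.90 to 7.54 and the depleted genes of -6.75 to -4.34.

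Gene families of the arm were mostly enriched. Chemoreceptor genes, which encode the odour receptors of sensory neurons, had 31 of 37 tested members enriched and 1 depleted, with a median of 3.81. Their 1169 tested members elsewhere had 789 enriched and 22 depleted, with a median of 3.06. All 5 sru members were enriched, against 20 of 32 elsewhere, among them sru-11 (5.41, 5.07 and 5.16 in the 3 replicates) and sru-9 (4.07, 3.61 and 5.39). Of 12 srz members 10 were enriched and 0 depleted, against 37 and 1 of 47 elsewhere, among them srz-74 (5.996, 5.805 and 4.913) and srz-75 (4.77, 6.63 and 4.43). Of 5 srt members 3 were enriched, against 36 of 52 elsewhere, among them srt-49 (3.79, 3.68 and 4.21) and srt-44 (3.19, 1.89 and 1.48), whose call was lost without replicate 1 (limma adjusted p = 0.098) and with edgeR (adjusted p = 0.085 without the block). Members of these families can share reads, and how reads with several matches were handled is not given in the sources used here.

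Families of other kinds were less uniform. All 5 C-type lectin genes, for secreted or membrane proteins that bind sugars, were enriched, against 156 of 226 tested elsewhere, among them clec-191 with 5.20, 3.73 and 3.91. All 6 irld genes, which encode proteins with a receptor L domain, were enriched, against 36 of 47 tested elsewhere, among them irld-18 (5.56, 6.60 and 4.62) and irld-39 (4.63, 4.67 and 5.14). The skr genes, for Skp1-related subunits of ubiquitin ligases, had a median of -0.76, with 0 of 5 enriched and 1 depleted; elsewhere 2 of 14 were enriched and 7 depleted. Of these skr-12 had -2.38, -8.13 and -2.48, a call lost with edgeR (adjusted p = 0.074), and skr-8 had -1.27, 0.38 and -3.21 and was not called (limma adjusted p = 0.18).

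The genes of the piRNA pathway itself lie mostly elsewhere. Of a list of 44 names, 40 were found in the annotation and 39 were tested, and only nyn-1, of the mutator-linked small RNA machinery, lies in the cluster. It had 850, 537 and 12 recovered reads in Dam::EMR-1, against 0, 0 and 52 in GFP::Dam, and ratios of 2.90, 4.29 and -1.24, and it was not called (limma adjusted p = 0.13). Without replicate 3 it was enriched (adjusted p = 0.013). Of the 39 genes 13 were depleted and 0 enriched in the fit of all replicates, with a median of -1.35, where 27.2% and 30.3% of all genes were. The depleted genes with the smallest adjusted p were unc-130 (-4.66 ± 0.37), a forkhead factor gene, tofu-6 (-5.89 ± 1.01) and tofu-5 (-2.60 ± 0.59), of piRNA production, nyn-2 (-4.20 ± 0.91), morc-1 (-4.19 ± 0.62), a nuclear silencing factor gene, mut-7 (-3.94 ± 0.34) and mut-15 (-3.89 ± 1.41), of the mutator complex, and the RNA-directed RNA polymerase gene rrf-1 (-2.79 ± 0.61; SD, n = 3). The gene of PRG-1 had -0.84, -3.28 and 1.50 and was not called, with 159 reads in all. With edgeR 5 pathway genes were depleted without the replicate block and 6 with it, near the shares of all genes in those fits, 16.9% and 14.3%; without the block the calls of mut-7 (adjusted p = 0.05), mut-15 (adjusted p = 0.46) and rrf-1 (adjusted p = 0.12) were lost. With replicate 1 or replicate 3 left out, 1 pathway gene was enriched and 10 depleted, where 22.3% and 22.0% of all genes were depleted.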

How the data were processed

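DamID libraries of 2 groups, 3 each, were numbered 1 to 3 by their titles. The deposited tables hold, per the file headers, log2 ratios for 3 replicates and a count of raw reads summed across libraries. The deposited log2 averages and the authors' adjusted p-values were not used. The running number of GATC sites in the deposited table, an index and not a score, gave the sites not listed. The submitters' processing notes name ce11 and DESeq2, without saying where either was used. The aligner and the origin of the ratios are unstated: not given in the sources used here. From the values, each ratio is log2 of (reads + 1) over (reads + 1), minus a constant per column.

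Whole reads per library were recovered from ratios and sums (tolerance 4e-12), and the solution was unique at 90.2% of GATC sites; for bins of 2, 10 and 100 kb the shares were 90.1%, 96.3% and 99.9%. In the cluster they were recovered in 349 of 364, 1204 of 1290 and 37 of 37 tested bins of 10, 2 and 100 kb, and other bins are left out of levels and summed reads. If PCR copies are counted among the reads, counting error is understated, which was not tested.

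Calls came from limma 3.58.1 in R 4.3.3, with an intercept only, robust variances trended on log2 read sums, at least 60 reads and Benjamini-Hochberg adjustment over each whole table, two-sided. Alternatives used edgeR 4.0.16 and DESeq2 1.42.0 on recovered reads. Regions and bin classes were compared per replicate ratio and per library by exact permutation tests. Genes came from a RefSeq table of WBcel235. It gives no strand, so piRNA genes were placed by their midpoint in place of their 5′ end, and a planned search for their upstream motif was not run. Both scripts for recovery and calls were tested on simulated data.

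The interval, whose members follow from coordinates alone, and the lists were chosen with earlier results of these data known. Named genes are the 10 highest and 10 lowest called cluster genes with more than 2039 reads (the median gene) and 1 sign in 3 replicates, in families with at least 5 tested members the 2 of lowest adjusted p, and up to 8 called pathway genes. ilcr-1, pkd-2, daf-38 and genes named in domains and stretches were chosen after their values were seen. The longest depleted domain and 1 GATC site are not reported here.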

Additional observations from a re-analysis of the deposited data

How the results depend on the processing

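Of 199 alternative values for counts, means and differences, 148 stayed within 1.5 times the count or 1 SD, 49 moved further and 2 reversed; of 519 for the 40 named genes, 15 lost and 3 gained a call and 0 reversed. Both reversals were on summed reads with no replicate block, -0.217 against right-end windows and -0.668 against the mirrored window, where the values for the rest of the genome and the small cluster were 0.715 and 0.663; without the 2 lowest 100-kb bins, an alternative chosen after seeing the data, the 4 were 0.662, 0.21, 1.593 and 1.542. On 100-kb bins the differences were 1.612 (rest), 1.337 (small cluster), 0.647 and 0.519, and on 2-kb bins 1.306 and 1.183 for both end comparisons. The small-cluster difference was 2.091 and 1.714 with pseudocounts of 0.1 and 5, and the mirrored one 0.985 in bins with 13 to 22 listed GATC sites. The alternatives for 100-kb calls, pathway genes and the gene difference, and bins overlapping a protein-coding gene, were also chosen after seeing the data. Total-read scaling gave a mean cluster ratio of 3.099. Leaving out a replicate gave 2.382 to 2.654 for that mean, and differences of 2.469 to 2.75, 1.851 to 1.993, 1.497 to 1.739 and 1.392 to 1.7.

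An adjusted p of 0.01 left 137 enriched and 17 depleted 10-kb bins and 54 and 21 of 2 kb. Leaving out a replicate gave 170 to 172 and 22 to 25 at 10 kb, 137 to 172 and 29 to 46 at 2 kb, 24 to 26 and 2 to 3 at 100 kb, 208 to 227 and 45 to 51 genes, and 0 to 1 and 10 to 16 pathway genes. With edgeR and the replicate block, 154 and 43 bins of 2 kb and 122 and 27 genes were called; with edgeR and no block, 174 and 33 genes; pathway genes depleted were 6 and 5. Runs of 3 bins of 2 kb gave 69 enriched and 8 depleted domains. The piRNA-bin difference was 2.717 with no read minimum, 2.25 with a pseudocount of 5, 1.112 without and 3.575 with a protein-coding gene in the bin, 1.524 in 10-kb bins split at their median, 1.591 with no replicate block on log2(CPM + 1), 2.623 without the 2 lowest 100-kb bins and 2.859 to 3.072 with a replicate left out. The gene difference was 4.317 on medians, 5.276 and 2.445 with pseudocounts of 0.1 and 5, and 3.524 to 3.659 with a replicate left out. The causes were not tested.

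Libraries of the same number did not deviate together (r of -0.005, 0.004 and 0 over 10-kb bins, against -0.011 to 0.012 for other pairs). With 3 libraries per group, these values cannot settle whether the block, which the deposited ratios build in, is more than a shared number. Depth limits the 2-kb scale, where 1290 of 1586 listed bins passed the read minimum.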
